A study of Mus musculus with 6 samples.

Results

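The genes described here encode the machinery that cuts nascent RNA at its 3′ end and adds the poly(A) tail, together with subunits of the Integrator complex. The 34 members are a list of gene names, and no measured value enters the rule. The list was, however, chosen with earlier results of these data known. All 34 were found among the 55263 genes of the tables and all 34 were among the 17621 genes with enough counts to be tested. They were compared, as genes and as individual transcripts, between wild-type (WT) mouse CD4+ T cells and CD4+ T cells labelled as Wtap knockout (Wtap KO). Wtap, the targeted gene, encodes a regulatory partner of the enzymes that write N6-methyladenosine (m6A) into mRNA.

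Most mRNAs end where the cleavage and polyadenylation specificity factor (CPSF) recognises a hexamer, usually AAUAAA, and cuts a short distance downstream of it. The cleavage stimulation factor (CstF) binds a GU-rich stretch past the cut, and cleavage factor I (CFIm) binds UGUA motifs before it and favours distal sites in many genes. Cleavage factor II (CFIIm) links cleavage to termination by RNA polymerase II, and a poly(A) polymerase then adds the tail, whose length depends on a nuclear poly(A) binding protein. Integrator works without this machinery, cutting the 3′ ends of small nuclear RNAs and ending many transcripts near promoters. The choice of poly(A) site is known to shift when T cells are activated.

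The mRNA of C57BL/6J cells was sequenced, with 3 libraries from WT and 3 from Wtap KO cells. Both groups shared 1 written protocol: 4-OH-tamoxifen at 1 µM for 24 h, then anti-CD3 at 1 µg/mL with anti-CD28 at 2.5 µg/mL in Th1 medium (IL-12 at 10 ng/mL, anti-IL-4 at 10 µg/mL) for 40 to 48 h. Cells then grew in IL-2 at 200 IU/mL and were collected on day 4. The Cre driver, whether WT cells carried it, the deleted exons, the age of the mice and whether the libraries came from separate animals were not given in the sources used here. Thus p-values weigh the difference between the groups against the spread of the 3 libraries in each. At least in part, that spread may be technical.

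The libraries held 32363139 to 44039467 estimated counts. The targeted gene was checked first: total Wtap RNA, at 94.3 to 114 CPM (the library's counts scaled to a common total) in WT cells and 114 to 119.6 CPM in Wtap KO cells, did not pass the test. The share of its transcript Wtap-205 was 47.5% to 55.8% in WT and 8.83% to 11.0% in Wtap KO. That of Wtap-201 was 27.7% to 40.5% in WT and 58.8% to 65.3% in Wtap KO. No test result is given for these shares. Wtap KO library 3 alone had a male pattern: the Y-linked gene Kdm5d reached 63.3 CPM there and 2.43 to 3.53 CPM elsewhere. Xist was at 3.81 CPM there and at 1979 to 4447 CPM elsewhere, so the Wtap KO libraries did not all come from 1 animal. Of 8 CD4 T cell markers 2 fell (Cd3g and Cd4), with a summed level of 2227 to 2269 TPM (counts per transcript length, scaled to a common total) in WT and 2038 to 2150 TPM in Wtap KO. Of 8 dendritic cell markers 3 rose (H2-Aa, Cd74 and Batf3; summed level 12.03 to 38.8 and 46.6 to 63.0 TPM), and of 2 CD8 T cell markers 1 rose (Cd8b1; 7.18 to 7.79 and 11.4 to 13.9 TPM). The dendritic cell marker H2-Ab1 stood at 30.3 TPM in WT library 1 and at 6.13 to 8.35 TPM in the other libraries. H2-Eb1 was at 0.610 to 1.84 TPM in WT and 2.02 to 3.31 TPM in Wtap KO. The dendritic cell markers Xcr1, Flt3 and Itgax stood at only 0 to 0.222 TPM over all libraries. Cd8a was at 0.0595 to 0.490 TPM in WT and 0.366 to 1.06 TPM in Wtap KO. H2-Ab1, H2-Eb1, Xcr1, Flt3, Itgax and Cd8a did not pass the test. All 6 of these marker calls were lost without Wtap KO library 1 and without Wtap KO library 2, and some without other libraries (adjusted p up to 0.134 in edgeR). None of the tested markers of B cells (3 of 5 tested), NK cells (2 of 4), macrophages and monocytes (2 of 6) or erythroid cells and platelets (3 of 5) passed the test. Their summed levels were 1.98 to 3.45 TPM in WT and 3.16 to 4.41 TPM in Wtap KO for B cells, 0.536 to 1.61 and 1.73 to 2.91 TPM for NK cells, 3.02 to 4.35 and 2.18 to 4.83 TPM for macrophages and monocytes, and 3.09 to 11.9 and 5.40 to 15 TPM for erythroid cells and platelets. Granulocyte markers summed to 0.107 to 0.202 and 0.233 to 0.761 TPM, with S100a8, S100a9 and Elane listed at 0 in all WT libraries and S100a9 at 0 in all Wtap KO libraries. Hbb-bs was listed at 0 in all Wtap KO libraries. Whether such other cells were present, and their part in the results below, was not tested. In bulk RNA fewer cells of a type cannot be told apart from less RNA per cell.

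Of the 34 members 2 rose and 2 fell in Wtap KO cells. Clp1, an RNA kinase subunit of CFIIm, rose 1.75-fold, and Rbbp6, a large protein needed to activate cleavage, rose 1.61-fold. Nudt21, the UGUA-binding subunit of CFIm, was 1.37-fold lower, and Cstf2t, the intronless paralog of the RNA-binding CstF subunit Cstf2, was also 1.37-fold lower. The other 30 members, among them all 11 Integrator subunits, did not reach an adjusted p below 0.05 in the quasi-likelihood test of edgeR, run on all genes. The members called higher were 5.88% of the list, beside 5.74% of all genes tested, and those called lower were also 5.88%, beside 3.48% of all genes.

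The sizes of the changes were small for the list as a whole. The median log2 fold change of the members, Wtap KO over WT, was -0.10, beside -0.001 for all genes, and the median absolute log2 fold change was 0.21, beside 0.27. Of the members 11 had a positive log2 fold change and 23 a negative one. That split depended on the method: limma on log2(TPM + 1), which differs in scale, normalization and test, gave 18 positive and 16 negative, with a median of 0.02 beside 0.03 for all genes. Length-scaled counts in edgeR gave 14 and 20, and a gene length offset in edgeR gave 10 and 24. With limma on TPM the share of all called genes that were higher was also larger, 73.9% against 62.2% with counts. In CPM all libraries of 1 group lay above all of the other in 16 of the 34 members (47.1%), beside 32.7% of all genes tested.

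**Figure D1:**
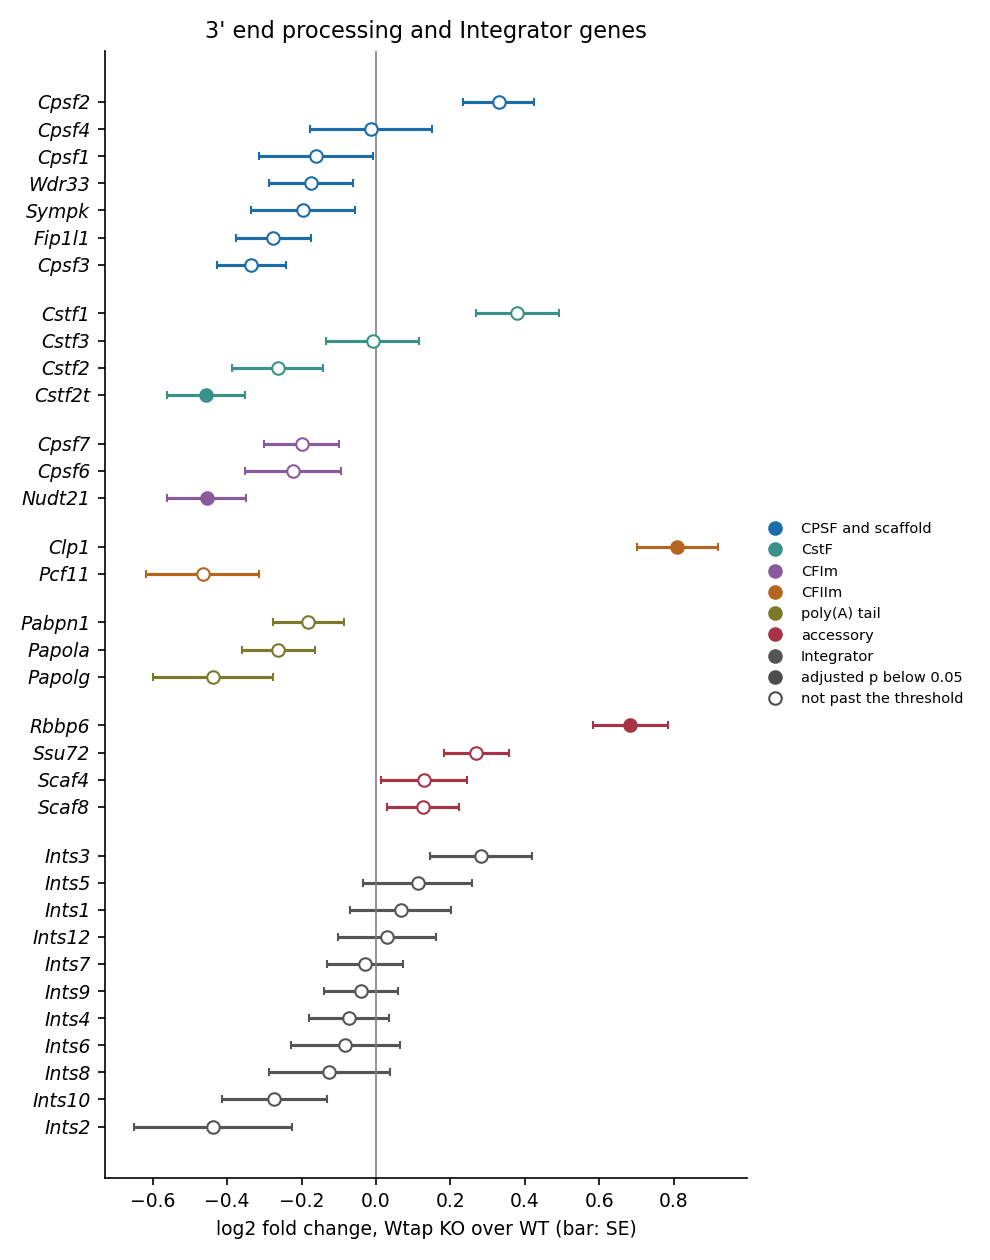
The log2 fold change of each of the 34 members (Wtap KO over WT, horizontal axis; bars are the standard error of the fit over 3 libraries a group), arranged by complex. Filled points are the 4 members past an adjusted p of 0.05: Clp1 and Rbbp6 lie to the right of the line at no change, and Nudt21 and Cstf2t to the left.

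Rbbp6 and Clp1 are described first, since their calls held in every alternative run. Rbbp6 (ENSMUSG00000030779, GRCm38 chr7:122965686-123002557, plus strand) was at 189 CPM, 197 CPM and 208 CPM in WT libraries 1 to 3. In Wtap KO libraries 1 to 3 it was at 309.8 CPM, 300.6 CPM and 345 CPM. All Wtap KO libraries lay above all WT libraries, with the highest value in library 3, the male one. The means were 198 ± 9.71 CPM (SD, n = 3) and 318 ± 23.5 CPM, a log2 fold change of 0.68 ± 0.10 (SE; edgeR quasi-likelihood test, adjusted p = 0.00641). Leaving out each library in turn gave adjusted p-values from 0.00454 to 0.0384, and the call was made in 9 of 9 other ways of processing.

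Clp1 (ENSMUSG00000027079, chr2:84722104-84727350, minus strand) was at 41.5 CPM, 37.5 CPM and 35.9 CPM in the WT libraries. In the Wtap KO libraries it was at 62.5 CPM, 71.0 CPM and 67.9 CPM. The lowest Wtap KO library stood well clear of the highest WT library, and the male library lay between the other two of its group. The means were 38.3 ± 2.92 CPM (SD, n = 3) and 67.1 ± 4.28 CPM, a log2 fold change of 0.81 ± 0.11 (SE; edgeR quasi-likelihood test, adjusted p = 0.00454). Without each library in turn the adjusted p ranged from 0.00126 to 0.0370, and the gene was called in 9 of 9 other ways of processing. Of all 34 members Clp1 had the largest log2 fold change, and in TPM it moved from rank 19 among them in WT to rank 7 in Wtap KO.

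**Figure D2:**
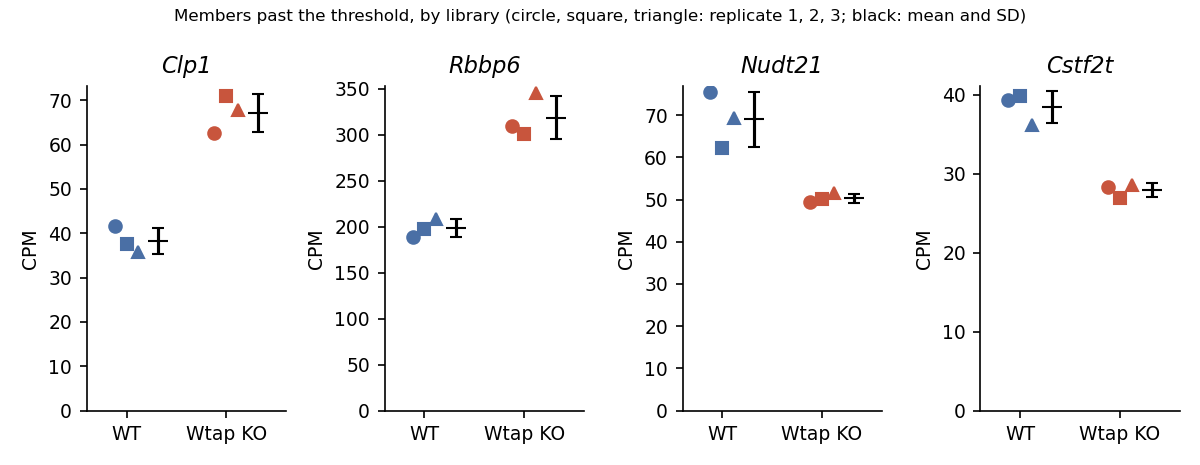
CPM in each library for the 4 members past the threshold (blue WT, red Wtap KO; circle, square and triangle are replicates 1, 2 and 3; black marks are the mean and SD of 3 libraries). The groups do not overlap in any of the 4 genes, and the gap is widest, relative to the WT level, in Clp1.

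The annotated 3′ ends of the transcripts behind these genes show the signal that the machinery itself reads. The last 30 bases of each are given below on the transcript's strand (GRCm38), with the hexamer AATAAA or ATTAAA in capitals. All lie in the last exon, within the annotated 3′ UTR. They are shown because the short Rbbp6 transcript ends in the middle of the gene, Clp1 is the member with the largest rise, and Nudt21 and Cpsf6 each have a near and a far end.
Rbbp6-203, short, chr7:122984363-122984392, plus strand: atttaaaattaaAATAAAgtgttaaaactg
Clp1-201, chr2:84723122-84723151, minus strand: attattttAATAAAtatgattgtgatagaa
Nudt21-204, near end, chr8:94019448-94019477, minus strand: ttgtacATTAAAgaaagtgaatttcttatt
Nudt21-201, far end, chr8:94015496-94015525, minus strand: gttatttcAATAAAaatatttaaaactgaa
Cpsf6-206, near end, chr10:117349042-117349071, minus strand: atgtagtgttgtAATAAActgtttatgggg
Cpsf6-201, far end, chr10:117344673-117344702, minus strand: tcttgtattgaaAATAAAaacaaagttttg

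The short Rbbp6 end and both Cpsf6 ends carry AATAAA, whereas the near end of Nudt21 carries ATTAAA and its far end AATAAA. On the transcript strand, AATAAA stood in the last 30 bases of the main coding transcript in 18 of the 34 members (52.9%), beside 55.0% of 9365 protein-coding genes. ATTAAA without AATAAA stood there in 3 members (8.8%, beside 13.1%). The 4 letters TGTA, the DNA form of the CFIm motif, stood in the last 100 bases in 16 members (47.1%, beside 55.6%). The 5 letters GGACT, a core of the m6A motif, occurred at a median of 0.99 per kilobase of the main transcript, beside 1.03 over all genes. A match is only a match of letters. Cstf2t-201, the single transcript of Cstf2t, had neither hexamer in its last 30 bases.

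Among the transcripts of Rbbp6, 1 full-length form rose and the short form did not pass the test. Rbbp6-202 has 17 exons and a coding length of 5268 bases. It stood at 16.6 TPM, 17.7 TPM and 17.4 TPM in WT and at 32.9 TPM, 35.1 TPM and 40.1 TPM in Wtap KO, with no overlap. Its level had a log2 fold change of 1.02 ± 0.11 (SE; edgeR quasi-likelihood test, adjusted p = 0.0280 over 46947 transcripts). The second full-length form, Rbbp6-201, with 18 exons, was at 10.1, 9.45 and 10.5 TPM in WT and 14.7, 11.0 and 14.0 TPM in Wtap KO, and did not pass (adjusted p of 0.274 in edgeR). Rbbp6-203 keeps only 3 exons, the last of them 5817 bases long, and a coding length of 369 bases. Short products of this gene, limited to its N-terminal domain, are known to compete with the full-length protein in cleavage. Rbbp6-203 was at 3.60 TPM, 3.00 TPM and 3.04 TPM in WT and at 2.18 TPM, 2.33 TPM and 3.45 TPM in Wtap KO, where the groups overlapped.

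As a share of the gene's estimated counts, the short form took less in each Wtap KO library than in any WT library, without passing the test. Rbbp6-203 made up 12.1%, 9.68% and 9.60% of Rbbp6 counts in WT. In Wtap KO it made up 4.30%, 4.99% and 6.08%. The highest Wtap KO share lay below the lowest WT share. The log2 ratio of Rbbp6-203 to the rest of the gene differed by -1.12 ± 0.21 (SE), but with an adjusted p of 0.144 over 39139 transcripts in limma the difference did not pass the threshold. Rbbp6-202 made up 50.4%, 51.4% and 49.5% in WT and 58.6%, 67.7% and 63.7% in Wtap KO (adjusted p of 0.222 in limma), and Rbbp6-201 made up 33.2%, 29.7% and 32.2% and then 28.3%, 22.9% and 24.0% (adjusted p of 0.397).

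**Figure D3:**
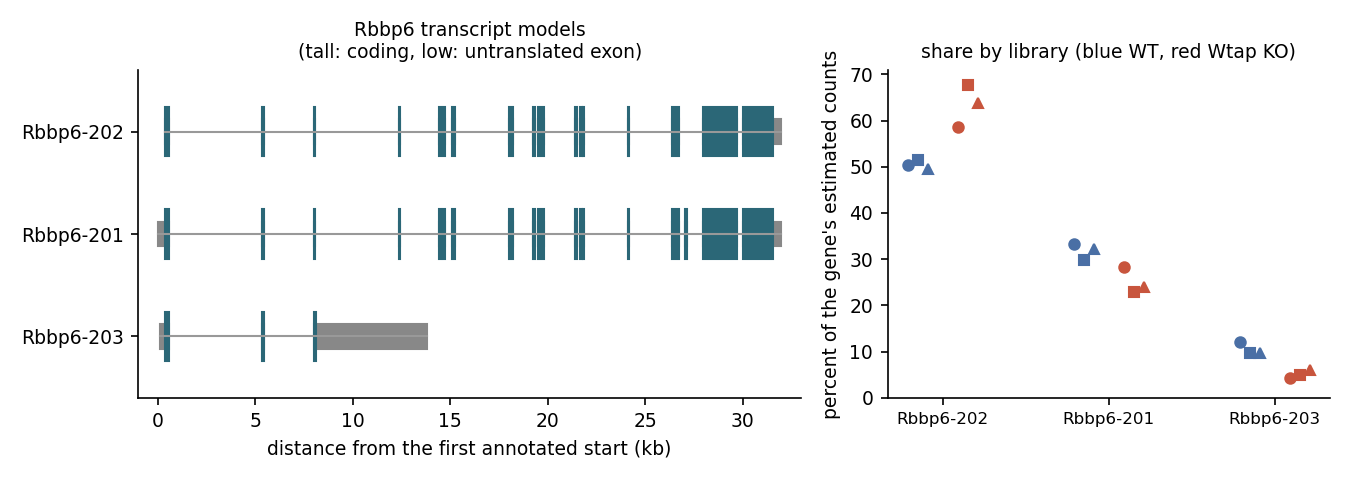
Left, exons of the 3 main Rbbp6 transcripts by distance from the first annotated start in kilobases (tall boxes coding, low boxes untranslated). Right, the share of the gene's estimated counts held by each transcript in every library (blue WT, red Wtap KO; circle, square and triangle are replicates 1, 2 and 3): Rbbp6-203, which ends early, holds 9.60% to 12.1% in WT and 4.30% to 6.08% in Wtap KO.

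For Clp1 the level rose in its main coding transcript. Clp1-201 has 3 exons and was at 14.0 TPM, 16.1 TPM and 14.6 TPM in WT. In Wtap KO it was at 29.1 TPM, 29.1 TPM and 29.7 TPM. The Wtap KO libraries lay close together and clear of WT. The log2 fold change was 0.93 ± 0.10 (SE; edgeR quasi-likelihood test, adjusted p = 0.0307). Its share of the gene's counts overlapped between the groups, at 61.2% to 78.3% in WT and 75.4% to 81.8% in Wtap KO. The non-coding model Clp1-202 held 17.8% to 31.96% and 15.6% to 22.7%.

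These were the only member transcripts whose level passed: 171 of the 241 member transcripts were tested, 2 were higher and 0 were lower, beside 0.501% of all tested transcripts called higher and 0.219% called lower. Neither call survived the loss of a library. Without any 1 of the 6 libraries the adjusted p in edgeR's test was 0.0655 to 0.179 for Rbbp6-202 and 0.0655 to 0.186 for Clp1-201, while the level of the whole gene kept its call in all 6 such runs for both genes. In transcript usage 0 of 168 member transcripts from 31 genes passed in limma, beside 0.324% of all transcripts. With an unadjusted p below 0.05 there were 21 (12.5%, beside 10.2% of all transcripts). An edgeR fit that used the gene total as its offset also called 0.

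Among the 7 CPSF subunits and their scaffold, none passed the test. The hexamer is read by Cpsf4 and Wdr33, Cpsf3 is the endonuclease, Cpsf2 its inactive relative, Cpsf1 the large platform subunit, Fip1l1 the contact for poly(A) polymerase and Sympk the scaffold. Their log2 fold changes ran from -0.33 to 0.33, with a median of -0.17. Both extremes were close to the threshold and are named after their values were seen. The endonuclease Cpsf3 was at 92.2, 88.4 and 84.6 CPM in WT cells and 70.2, 70.6 and 69.3 CPM in Wtap KO cells, and its relative Cpsf2 was at 56.1, 56.2 and 61.6 CPM in WT cells and 72.6, 73.1 and 72.9 CPM in Wtap KO cells. The groups of each gene did not overlap in CPM and lay in opposite directions, but those of Cpsf3 overlapped in TPM. The adjusted p in edgeR was 0.0566 for Cpsf3 and 0.0651 for Cpsf2. Cpsf3 was called in 3 of 9 other ways of processing and Cpsf2 in 2 of 9, DESeq2 among them for both, and neither was called in any of the 6 runs without 1 library. Cpsf4, the member with the lowest CPM in WT, was at 17.5 ± 3.68 CPM (SD, n = 3) in WT cells and 17.4 ± 0.337 CPM in Wtap KO cells.

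In CstF, 1 of 4 subunits fell and 0 rose. Cstf2t (ENSMUSG00000053536, chr19:31082837-31087069, plus strand) was at 39.3 CPM, 39.8 CPM and 36.1 CPM in WT. In Wtap KO it was at 28.3 CPM, 27.0 CPM and 28.6 CPM. All Wtap KO libraries lay below all WT libraries. The means were 38.4 ± 2.02 CPM (SD, n = 3) and 28.0 ± 0.877 CPM, a log2 fold change of -0.46 ± 0.10 (SE; edgeR quasi-likelihood test, adjusted p = 0.0313). The call was lost without WT library 2 (adjusted p of 0.115 in edgeR) and without Wtap KO library 1, 2 or 3 (0.128, 0.167 and 0.0782). It was also lost on the TPM scale (0.113 in limma). Cstf2t has 1 exon inside the span of Prkg1 on the other strand and shares no exon bases and no run of 31 bases with another gene.

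The other CstF subunits did not pass. Cstf2, the X-linked paralog of Cstf2t, was at 91.7 ± 11.5 CPM (SD, n = 3) in WT cells and 76.3 ± 6.30 CPM in Wtap KO cells (adjusted p of 0.208 in edgeR). In TPM, which is per length, Cstf2t stood at 0.270 ± 0.0396 of Cstf2 in WT and 0.220 ± 0.0246 in Wtap KO, and these ratios overlapped. Cstf1, the WD-repeat subunit, was at 44.4, 39.0 and 43.3 CPM in WT cells and at 55.2, 59.4 and 50.2 CPM in Wtap KO cells. Its groups did not overlap, but the adjusted p was 0.0679 in edgeR. It passed only without WT library 1 (0.0417) among the runs that left out a library. Cstf3 was at 56.0 ± 3.18 CPM in WT cells and 55.7 ± 7.88 CPM in Wtap KO cells.

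In CFIm, 1 of 3 subunits fell. Nudt21 (ENSMUSG00000031754, chr8:94015496-94037031, minus strand) was at 75.4 CPM, 62.2 CPM and 69.3 CPM in WT. In Wtap KO it was at 49.3 CPM, 50.2 CPM and 51.5 CPM. Every Wtap KO library lay below the lowest WT library. The means were 69.0 ± 6.61 CPM (SD, n = 3) and 50.3 ± 1.08 CPM, a log2 fold change of -0.45 ± 0.11 (SE; edgeR quasi-likelihood test, adjusted p = 0.0340). The call was lost without WT library 2 (adjusted p of 0.0590 in edgeR) and without Wtap KO library 1, 2 or 3 (0.143, 0.154 and 0.0853), and narrowly on the TPM scale (0.0515 in limma).

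Part of the Nudt21 value is uncertain because 13.8% of its runs of 31 bases also occur in other genes, and 12.2% occur in the processed pseudogene Gm7488. Gm7488 itself fell, at 51.2 ± 3.47 CPM (SD, n = 3) in WT cells and 37.0 ± 4.29 CPM in Wtap KO cells (adjusted p of 0.0471 in edgeR), and the tables do not show how reads that match both were divided. The partners Cpsf6 and Cpsf7, which carry arginine-rich domains, did not pass. Cpsf6 was at 175.5 ± 16.7 CPM in WT cells and 150.4 ± 20.8 CPM in Wtap KO cells, and Cpsf7 at 97.4 ± 6.49 and 84.8 ± 4.66 CPM. Per length, Nudt21 stood at 0.666, 0.700 and 0.745 of Cpsf6 in WT and at 0.563, 0.499 and 0.452 in Wtap KO. Those ratios did not overlap, whereas the ratios of Nudt21 to Cpsf7 did.

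The transcripts of Cpsf6 and Nudt21 with near and far ends are described after their values were seen. The far-ended Cpsf6-201, 6526 bases long, made up 64.0%, 61.0% and 62.9% of the gene's counts in WT and 47.9%, 51.6% and 58.5% in Wtap KO. The near-ended Cpsf6-206, 2227 bases long, made up 5.97%, 8.37% and 6.59% in WT and 20.8%, 14.99% and 8.68% in Wtap KO. The groups did not overlap in either, and Wtap KO library 3 lay nearest to WT in both. Neither passed in limma's usage test (adjusted p of 0.367 and 0.4002). In Nudt21 the far-ended Nudt21-201 held 31.1% to 36.2% in WT and 31.2% to 41.0% in Wtap KO, and the near-ended Nudt21-204 held 62.6% to 67.8% and 57.8% to 68.2%, so both overlapped.

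The 2 members of CFIIm had opposite signs. Clp1 rose as given above, while Pcf11, which binds the tail domain of RNA polymerase II and promotes termination, was at 110.3 CPM, 107 CPM and 121 CPM in WT. In Wtap KO Pcf11 was at 68.8 CPM, 74.7 CPM and 101.7 CPM. Wtap KO library 3, the male one, lay close to the WT range, though below it. The log2 fold change was -0.47 ± 0.15 (SE), and its adjusted p of 0.0906 in edgeR did not pass. Without Wtap KO library 3 the adjusted p was 0.0307, with a log2 fold change of -0.65. Per length, Clp1 stood at 0.975, 0.910 and 0.771 of Pcf11 in WT and at 1.99, 2.21 and 1.67 in Wtap KO, so the ratio did not overlap between the groups and Clp1 passed from below to above Pcf11.

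The 3 poly(A) tail genes all had negative log2 fold changes and none passed. Papola, the main nuclear poly(A) polymerase, was at 292 ± 11.9 CPM (SD, n = 3) in WT cells and 243 ± 17.95 CPM in Wtap KO cells (adjusted p of 0.131 in edgeR). Its relative Papolg was at 54.4, 56.2 and 67.9 CPM in WT cells and at 37.9, 39.6 and 54.2 CPM in Wtap KO cells (adjusted p of 0.124), and there too Wtap KO library 3 stood nearest to WT. Pabpn1, the nuclear poly(A) binding protein, was at 143 ± 4.09 CPM and 126 ± 8.51 CPM. The groups did not overlap in CPM in any of the 3, but they did in TPM. Pabpn1 was the most abundant member per length, at 192 ± 18.6 TPM in WT, but 21.4% of its exon bases lie in the read-through gene Gm20521 (at most 0.737 CPM in any library).

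The 4 accessory genes all had positive log2 fold changes, and of these Rbbp6 alone passed. Ssu72, a phosphatase of the polymerase tail domain, was at 139, 141 and 139 CPM in WT cells and at 169.6, 170.4 and 165 CPM in Wtap KO cells. The groups lay far apart relative to their spread, but the change was small, with a log2 fold change of 0.27 ± 0.09 (SE) and an adjusted p of 0.0891 in edgeR. An antisense gene covers 15.1% of the exon bases of Ssu72, and since the strand setting of the counting is not given, their reads cannot be told apart. Scaf4 and Scaf8, tail-domain binders that prevent early polyadenylation, were at 66.3 ± 7.54 and 69.0 ± 2.46 CPM (SD, n = 3) in WT and at 72.5 ± 4.80 and 75.3 ± 3.55 CPM in Wtap KO. The Scaf8 level is uncertain, since 18.6% of its runs of 31 bases occur in other genes, 15.02% in Gm9077.

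None of the 11 Integrator subunits passed, and 0 had an unadjusted p below 0.05 in edgeR, beside 26.3% of all genes tested. In the whole list 12 of the 34 members (35.3%) had such a p, all of them outside Integrator. DESeq2 called 0 of the 11 Integrator subunits as well. Their log2 fold changes ran from -0.44 to 0.28, with a median of -0.04 and adjusted p-values of 0.229 to 0.920. Their summed level was 185 TPM, 165 TPM and 167 TPM in WT and 181 TPM, 168 TPM and 193 TPM in Wtap KO, which overlapped. Ints2 and Ints3 had the lowest and the highest fold change. Ints2, a subunit of the core, was at 47.1, 28.0 and 26.3 CPM in WT, so 1 library was high, and at 25.2, 23.8 and 25.9 CPM in Wtap KO. Ints3, shared with a single-strand DNA binding complex of DNA repair, was at 41.8 ± 6.83 CPM (SD, n = 3) in WT cells and 50.8 ± 3.91 CPM in Wtap KO cells.

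Ints9, the inactive partner of the Integrator endonuclease, was at 57.1 ± 3.22 CPM (SD, n = 3) in WT cells and 55.5 ± 1.86 CPM in Wtap KO cells. Ints4, which binds that pair as a scaffold, was at 30.8 ± 2.19 and 29.2 ± 0.443 CPM. In the core, Ints1, the largest subunit, was at 25.0 ± 2.90 and 26.2 ± 2.89 CPM and Ints7 at 89.4 ± 7.83 and 87.6 ± 1.47 CPM. Ints5 was at 28.5 ± 4.55 and 30.8 ± 3.26 CPM, but 36.4% of its runs of 31 bases also occur in other genes, 28.6% in Gm13126, and 14.3% of its exon bases lie in the overlapping gene Gm49416, so its level is uncertain. Ints6 and Ints8, which hold protein phosphatase 2A on the complex, were at 72.5 ± 9.23 and 68.4 ± 11.1 CPM and at 30.5 ± 5.28 and 28.0 ± 4.36 CPM. Ints10 was at 34.03 ± 5.96 and 28.2 ± 1.25 CPM, and Ints12, a small PHD finger protein, at 43.8 ± 6.52 and 44.8 ± 2.74 CPM. In all 9 the difference between the means was smaller than the SD of the WT libraries.

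The annotation also lists transcripts that end before the gene's main stop codon, as an intronic poly(A) site or a retained intron would give. The share of counts in such early-ending transcripts could be tested in 29 members. None passed in limma, beside 0.348% of 6906 genes tested, and 6 had an unadjusted p below 0.05 (20.7%, beside 11.4% of all genes). They were Ints2, Rbbp6, Papolg, Pabpn1, Sympk and Pcf11. The share was lower in Wtap KO in Rbbp6 and higher in the other 5. In Rbbp6 it was 13.5%, 12% and 11.3% in WT and 5.83%, 6.67% and 7.61% in Wtap KO (adjusted p of 0.0946 in limma).

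Ints2 had the largest difference in the other direction. Its early-ending transcripts held 8.93%, 9.57% and 10.4% of the counts in WT. In Wtap KO they held 18.3%, 18.1% and 17.5%. The groups lay far apart, with a log2 difference in odds of 1.03 ± 0.17 (SE) and an adjusted p of 0.0841 in limma. The full-length Ints2-201 held 87.6%, 85.1% and 89.6% in WT and 74.7%, 78.3% and 74.6% in Wtap KO. With an adjusted p of 0.126 it was the member transcript nearest to passing in limma's usage test. Most of the early-ending counts lay in the retained-intron models Ints2-203, Ints2-207 and Ints2-211. Of these, Ints2-207 has AATAAA in its last 30 bases and the others have neither hexamer there. Genes on the other strand cover 4.8% of the exon bases of Ints2 (Brip1os) and 3.1% and 1.7% of those of Pcf11 (6430511E19Rik and Gm26944). Since the strand setting of the counting is not given, reads from these stretches cannot be told apart. In Pcf11 the early-ending share was 7.30%, 7.24% and 7.08% in WT and 10.4%, 8.91% and 8.29% in Wtap KO, most of it in Pcf11-205, a single-exon model of 1720 bases with a coding length of 234 bases. Its last 30 bases, in the 3′ UTR on the minus strand at chr7:92668184-92668213, carry AATAAA (capitals).
Pcf11-205: aaaatttgtgAATAAAacatataaaatatg

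**Figure D4:**
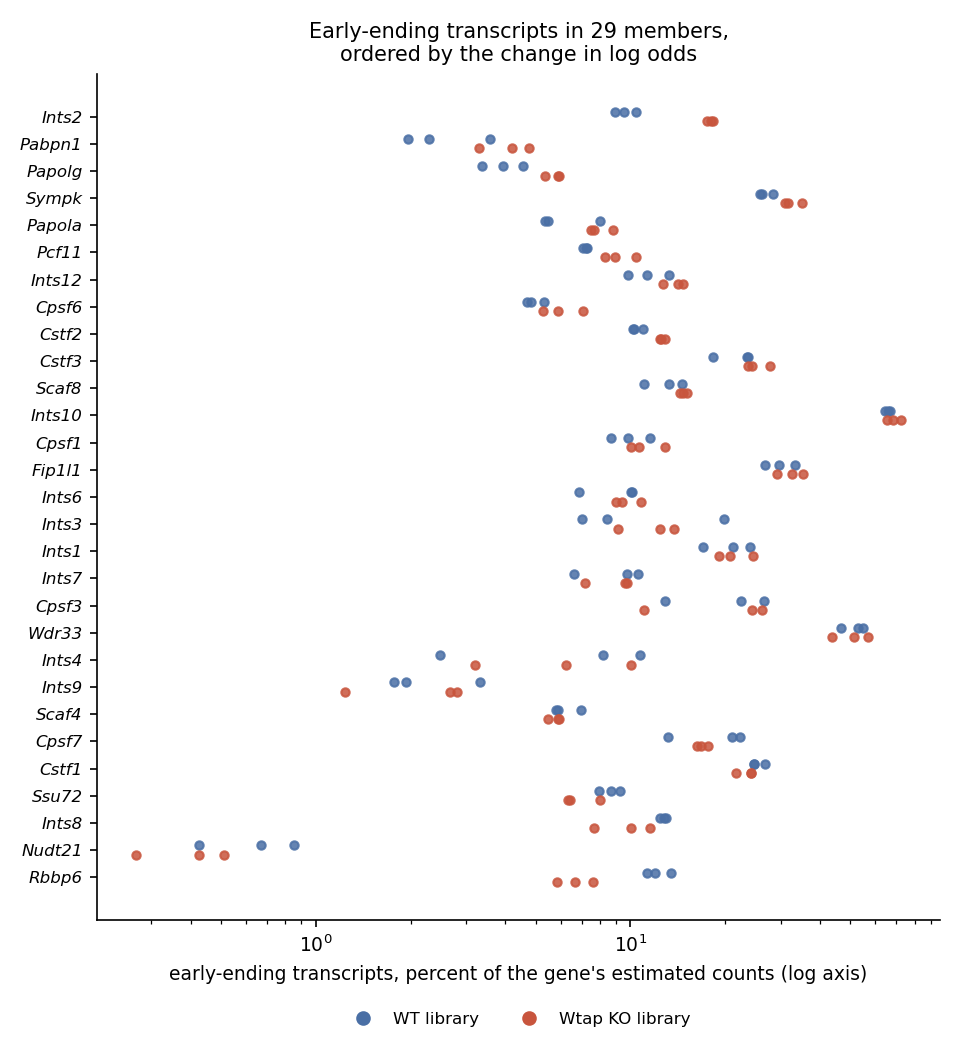
The share of each member's estimated counts in transcripts that end before the main stop codon, in every library (horizontal axis on a log scale, in percent; blue WT, red Wtap KO), with the 29 tested members ordered by the change in log odds. Ints2 at the top and Rbbp6 at the bottom show the largest separations, at 8.93% to 10.4% against 17.5% to 18.3% and at 11.3% to 13.5% against 5.83% to 7.61%; no member passed the adjusted threshold.

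The share of counts in protein-coding transcripts could be tested in 28 members, and 0 passed in limma, beside 0.327% of 7329 genes. With an unadjusted p below 0.05 there were 5 (17.9%, beside 10.9% of all genes): Ints2, Rbbp6, Ssu72, Sympk and Cpsf6. In Ints2 the coding share was 91.2%, 90.4% and 89.6% in WT and 81.7%, 82.0% and 82.5% in Wtap KO (adjusted p of 0.103 in limma). This is largely the same split of Ints2 counts as its early-ending share, seen from the other side, and not a second result. The coding share was higher in Wtap KO in Rbbp6 and Ssu72 and lower in Ints2, Sympk and Cpsf6. Since kallisto splits reads between overlapping transcripts, and the tables give no error for that split, such shares are less certain than the levels of whole genes.

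Of 82 further genes of the pathway that were tested, in 6 lists, 5 rose and 4 fell. Among 11 genes of histone pre-mRNA processing and cap binding 2 rose. Lsm10, which belongs to the U7 particle that directs histone mRNA cleavage, was at 17.3 ± 2.47 CPM (SD, n = 3) in WT cells and 38.0 ± 3.86 CPM in Wtap KO cells, a log2 fold change of 1.14 ± 0.14 (SE; adjusted p of 0.00366 in edgeR). Phax, the adaptor that exports capped small nuclear RNAs, was at 52.8 ± 5.21 and 93.0 ± 6.34 CPM (log2 fold change 0.81 ± 0.11, adjusted p of 0.00507). Both kept their calls without each library in turn.

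Among 24 termination and polymerase tail regulators, Rprd2, Cdk9 and Cdk13 rose and Ppp1ca and Ccnk fell, with log2 fold changes from -0.46 to 0.50. The kinase Cdk13 and its cyclin Ccnk thus had opposite signs, at 0.38 and -0.39. Among 9 tested genes of the other Integrator subunits and its phosphatase, Ppp2r1a, the scaffold of protein phosphatase 2A, fell from 138 ± 3.41 to 94.7 ± 4.74 CPM (log2 fold change -0.54 ± 0.09, adjusted p of 0.0118 in edgeR). The median log2 fold change of these 9 genes was -0.31, beside -0.04 for the 11 Integrator subunits among the members. Among 13 genes of the U1 particle and poly(A) site repressors, Snrpc fell (log2 fold change -0.41). None of 13 elongation factors of the NELF, DSIF and PAF complexes and none of 12 genes of nuclear poly(A) RNA fate passed. The Ppp2r1a call was lost without WT library 2 or Wtap KO library 2 (adjusted p up to 0.0791 in edgeR). Those of Rprd2, Cdk9, Cdk13, Ppp1ca, Ccnk and Snrpc were lost without WT library 2 and without each Wtap KO library, and the last 3 also without WT library 3 (adjusted p up to 0.199 in edgeR).

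**Figure D5:**
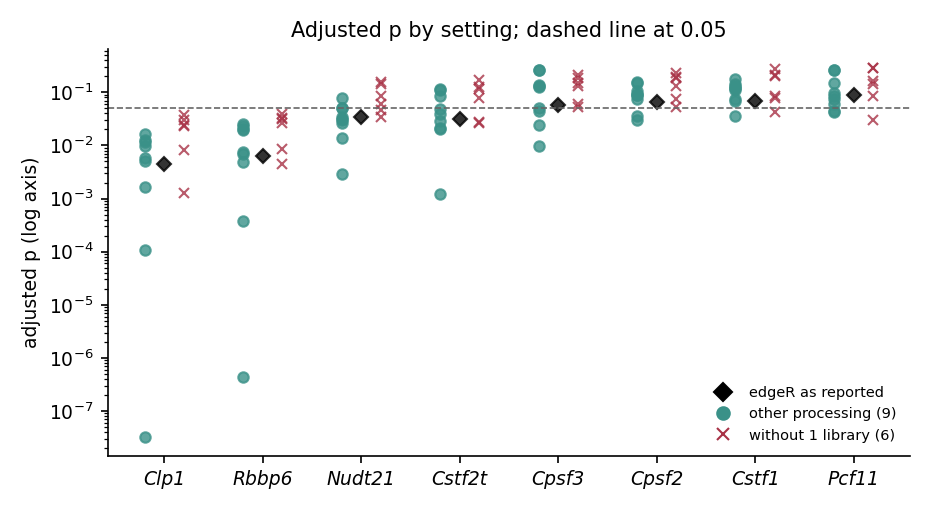
Adjusted p (log axis) for the 4 called members and for Cpsf3, Cpsf2, Cstf1 and Pcf11, as reported (black), in 9 other ways of processing (green) and without each of the 6 libraries (red crosses). Clp1 and Rbbp6 lie below the dashed line at 0.05 in all of them, whereas Nudt21 and Cstf2t cross it.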

How the data were processed

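kallisto 0.44.0, DESeq2 and GRCm38 (mm10) are named in the submitters' processing notes. The tables that the authors deposited, 1 per library, list 142647 transcripts with estimated counts, TPM values and lengths. The index annotation and strand setting were not given in the sources used here. Transcripts were matched by identifier to GENCODE M21. The 1123 unmatched ones, and Ints15, which could not be matched, were left out. For genes, estimated counts were summed and then rounded. CPM came from TMM-scaled library sizes. Genes and transcripts were tested with edgeR 4.0.16 (quasi-likelihood, TMM, filterByExpr) in R 4.3.3, on genotype alone, and shares with limma 3.58.1 on log2 ratios (pseudocount 0.5, at least 10 counts per class), with Benjamini-Hochberg adjustment over all features and a threshold of 0.05. An SE is the absolute log2 fold change over the root of F. DESeq2 1.42.0 was an alternative. The fits for genes, transcripts, usage and coding shares were tried on simulated data, and the fit for early-ending shares was not. The members and lists were chosen with earlier results of these data known. The rule gave values to called members, members with an absolute log2 fold change of 0.5 or more, called transcripts with the gene's transcripts above a 10% share, and up to 3 called genes per further list and direction. Members outside it were described after their values were seen. Sequences come from GENCODE transcripts.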

Additional observations from a re-analysis of the deposited data

How the results depend on the processing

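Clp1 and Rbbp6 were called in each alternative, and Nudt21 and Cstf2t in some. Against 1626 genes called, DESeq2 called 2577 and runs without 1 library 361 to 2279. Against 4 members called, DESeq2 called 9 (adding Cpsf2, Cpsf3, Cstf1, Pcf11 and Ssu72), limma on log2(TPM + 1) or log2(TPM + 0.1) 2 each, and runs without 1 library 2 to 5. No filter gave 5, a length offset 5 and a GC offset, chosen after seeing the data, 6. Against 338 transcripts called, runs without 1 library gave 0 to 17, with 0 of the 2 members. Against 127 in usage they gave 3 to 90 and an edgeR fit on the gene total 82, against 24 coding shares 7 to 15, and against 24 early-ending shares 3 to 22. The cause was not tested. Depth limits what small shares can show.

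For libraries with the same replicate number, deviations from the group mean had correlations of -0.10, 0.05 and 0.14. Pairs with different numbers had correlations of -0.20 to 0.15. With 3 libraries a group such values cannot show whether equal numbers mark a shared origin, and the labels do not say. With the number as a replicate block, 1059 genes, 2 members, 0 transcripts, 0 member transcripts, 0 in usage, 4 coding shares and 1 early-ending share were called.

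Some log2 fold changes of members that were not called turned sign, in the order log2(TPM + 1), log2(TPM + 0.1) where both did: Cpsf4 (0.020, 0.022, and 0.007 with the block), Cstf3 (0.148, 0.151, with length-scaled counts 0.108 and the GC offset 0.079), Cpsf6 (0.055, 0.056), Ints4 (0.056, 0.060, length-scaled 0.008), Ints6 (0.124, 0.128, length-scaled 0.087), Ints7 (0.041, 0.043) and Ints9 (0.012, 0.012). With the GC offset Ints1 was at -0.108 and Ints5 at -0.024, and with the length offset Ints12 at -0.001. Without 1 library, values ranged from -0.155 to 0.153 (Cpsf4), -0.128 to 0.075 (Cstf3), -0.023 to 0.163 (Ints1), -0.216 to 0.018 (Ints6), -0.090 to 0.035 (Ints7), -0.253 to 0.021 (Ints8) and -0.082 to 0.128 (Ints12).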
